A study of Homo sapiens with 6 samples.

Results

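The TNF superfamily was followed in SUM-LM1 breast cancer cells that had met activin B for 6 h. Members were the genes named TNFRSF or TNFSF followed by a number, without TNFRSF11B, together with TNF, LTA, LTB, FAS, FASLG, CD40, CD40LG, CD27, CD70, LTBR, NGFR, EDAR and EDA2R. This naming rule took 44 of 19775 genes measured by a probe set with a single gene name, or 88 of 54613 probe sets. A gene with several sets was read from the one whose mean signal over all 6 arrays was highest. The members comprised 15 ligands, 8 receptors with a death domain, 2 decoy receptors, 16 receptors without a death domain and 3 non-coding transcripts that carry a receptor's name (TNFRSF10A-DT, TNFRSF10B-AS1 and TNFRSF14-AS1). CD40LG, TNFSF12 and TNFRSF6B were not analysed here. SUM-LM1 is a lung-metastatic derivative of the human line SUM159, so all results come from a single line. At a density of 12500 per ml, the cells were seeded in dishes that prevent attachment, in HuMEC medium with BSA. Activin B is a ligand of the TGF-beta family that acts through SMAD proteins. Of the 6 cultures, 3 received 50 ng/ml recombinant human activin B and 3 received the vehicle, BSA in PBS. Their RNA was hybridised to Affymetrix U133 Plus 2.0 arrays, and the signals are given on the log2 scale.

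Ligands of this family are mostly membrane proteins that act as trimers, on the cell that makes them, on a neighbor or after release by proteases such as ADAM17. Receptors with a death domain recruit FADD or TRADD and can activate caspase-8, whereas those without it bind TRAF adaptors and chiefly switch on NF-kB. Decoy receptors hold ligand without passing on a full death signal. In breast cancer the family is known for TRAIL, which kills tumor cells through its death receptors, and for TNF, which drives inflammatory signaling between tumor, macrophages and endothelium.

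Of the 44 members, TNFRSF19 fell after activin B, none rose and 43 did not pass at an adjusted p under 0.05. By the same limma fit, 0.192% of all 19775 genes were called, and 0.091% were called lower. Log2 changes of the members lay between -0.51 and 0.27 with a median of -0.0083, beside a median of -0.0017 over all genes. At an unadjusted p under 0.05 there were 7 members, TNFRSF19, TNFRSF12A, TNFSF9, FAS, EDAR, TNFRSF9 and TNFRSF11A, which is 15.9% of them against 5.89% of all genes. The 3 activin B arrays lay wholly above or below the 3 vehicle arrays in 10 members, 22.7% of them against 10.3% of all genes. Of these, 6 lay above (TNFSF9, TNFSF15, TNFSF18, LTB, TNFRSF12A and TNFRSF9), beside 5.14% of all genes, and 4 lay below (FAS, TNFRSF19, TNFRSF11A and TNFRSF18), beside 5.21%. The members were read on the same arrays, so these shares are a description. The changes were small: 2 members, TNFRSF19 and TNFRSF12A, differed by more than 1.2-fold. The 95% confidence interval of a member reached a median of 0.15 to either side on the log2 scale, or 1.11-fold. In bulk RNA, fewer cells expressing a gene and less RNA per cell cannot be told apart.

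**Figure D1:**
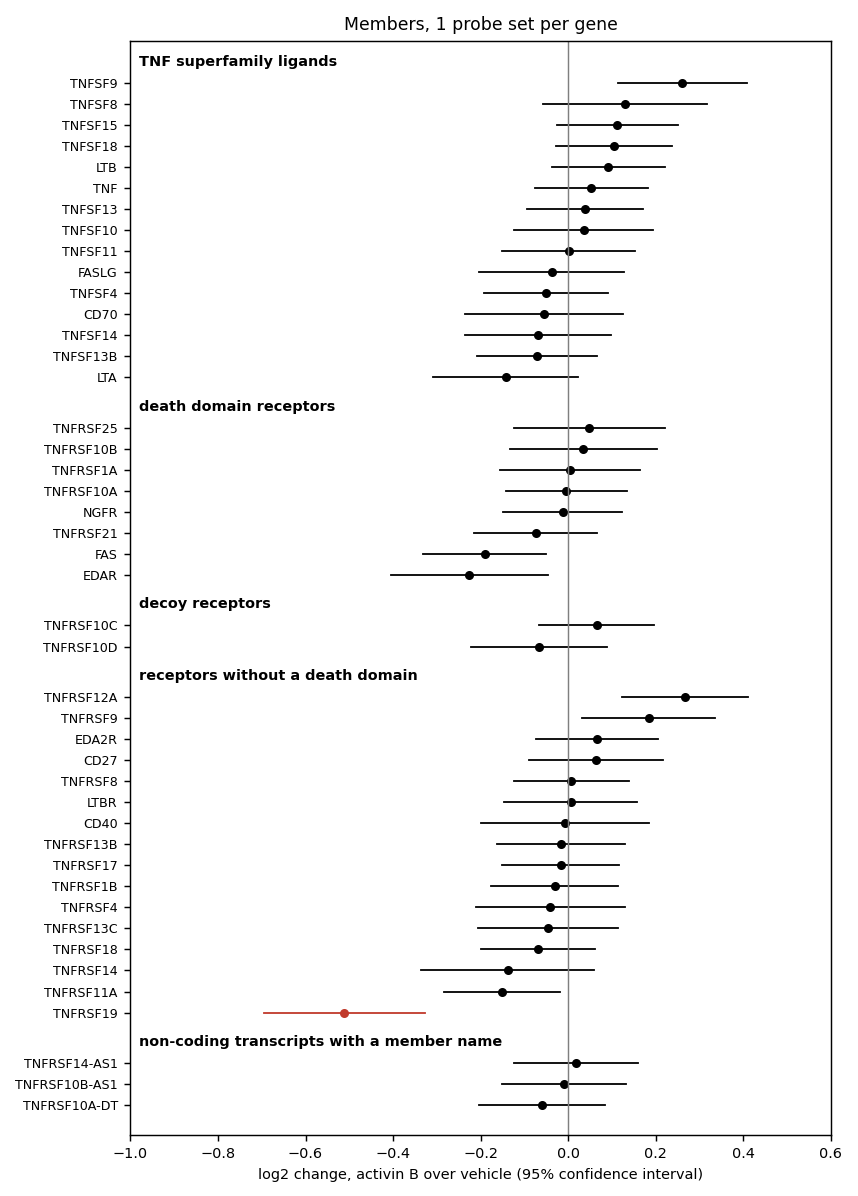
Log2 change of activin B over vehicle (x axis) for each of the 44 members, grouped by role. Points are estimates from the limma fit with 3 arrays per group and lines are 95% confidence intervals; TNFRSF19, in red, is the member called at an adjusted p under 0.05, at -0.51, and TNFRSF12A and TNFSF9 lie highest at 0.27 and 0.26.

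TNFRSF19, also called TROY, is a receptor without a death domain that is known from hair follicle and neural development and as a target of Wnt signaling. Its log2 signal was 7.86, 7.85 and 7.81 in vehicle and 7.09, 7.46 and 7.43 in activin B. The vehicle arrays were tightly grouped and every activin B array lay below them, with replicate 1 lowest. The signal fell by 0.51 ± 0.086 on the log2 scale (SE; adjusted p = 0.0285), which is 1.43-fold lower, with a 95% confidence interval from -0.69 to -0.33. The call rests on 1 of its 3 probe sets. The second set read 6.87, 6.80 and 6.93 without and 6.87, 6.67 and 6.82 with activin B, which gave a log2 change of -0.080 ± 0.070 (SE; adjusted p = 0.995) with an interval from -0.23 to 0.069. The remaining set read 6.46, 6.53 and 6.58 without and 6.46, 6.41 and 6.49 with activin B, a log2 change of -0.070 ± 0.063 (SE; adjusted p = 0.995) with an interval from -0.20 to 0.064. All 3 estimates were below 0, but neither of the other sets passed, the groups overlapped in both, and both of their intervals lay wholly above that of the called set. Both read lower signals, with vehicle means of 6.87 and 6.52 against 7.84 for the called set. The set at 6.52 lay under the median of all probe sets (6.69), where the deposited normalization compresses differences. Its interval does not bound the change in RNA. With the mean of the 3 sets the log2 change was -0.22 (adjusted p = 0.232). When sets at or below the median signal were dropped before adjustment, the adjusted p was 0.0506. Leaving out any 1 vehicle array ended the call, with replicates 1, 2 and 3 left out in turn (adjusted p = 0.145, 0.207 and 0.128), with log2 changes from -0.53 to -0.50. Without the lowest array, activin B replicate 1, the change was -0.39 (adjusted p = 0.0493).

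**Figure D2:**
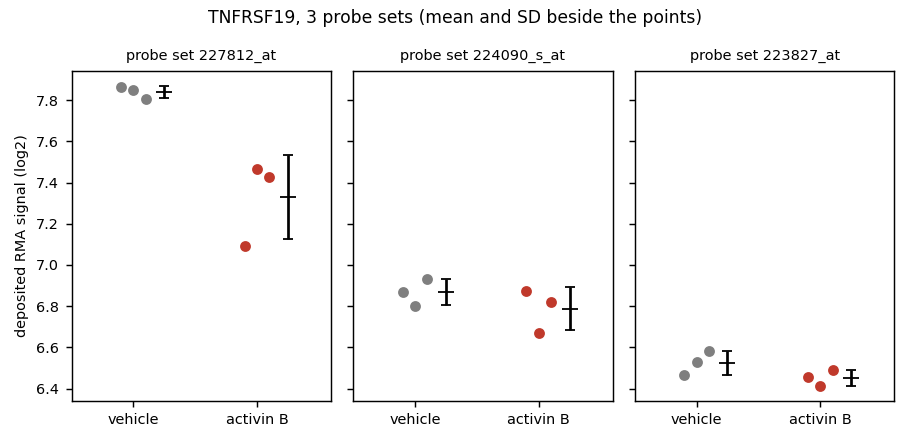
Deposited log2 signal (y axis) of each array for the 3 probe sets of TNFRSF19, with grey for vehicle, red for activin B, and the group mean and SD beside the points. In the left panel, the set that represents the gene, vehicle arrays lie between 7.81 and 7.86 and activin B arrays between 7.09 and 7.46; in the other panels the groups overlap, and heights are not compared between panels.

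The RefSeq promoter table of GRCh38.p14 holds a pair of start sites for TNFRSF19, 8.95 kb apart on the plus strand of chromosome 13. Both are shown because its probe sets differed and the files do not say which transcripts each set reads. The promoter of TNFSF9, the ligand with the largest log2 change, is shown beside them for contrast. Each runs from 250 bases before to 50 bases after the start, 5′ to 3′ on the plus strand, at chr13:23570162-23570461, chr13:23579110-23579409 and chr19:6530776-6531075. Capitals mark the SMAD box, CAGAC or its reverse complement GTCTG, and the GC-rich SMAD element GGCGCC, which reads the same on both strands and does not overlap the other motif here.
TNFRSF19, upstream start: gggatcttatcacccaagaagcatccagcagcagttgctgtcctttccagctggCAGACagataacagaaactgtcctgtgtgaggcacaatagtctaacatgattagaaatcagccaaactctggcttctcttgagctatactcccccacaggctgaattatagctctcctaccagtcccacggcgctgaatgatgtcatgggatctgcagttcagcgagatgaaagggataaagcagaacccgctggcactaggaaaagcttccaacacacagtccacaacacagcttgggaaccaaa
TNFRSF19, downstream start: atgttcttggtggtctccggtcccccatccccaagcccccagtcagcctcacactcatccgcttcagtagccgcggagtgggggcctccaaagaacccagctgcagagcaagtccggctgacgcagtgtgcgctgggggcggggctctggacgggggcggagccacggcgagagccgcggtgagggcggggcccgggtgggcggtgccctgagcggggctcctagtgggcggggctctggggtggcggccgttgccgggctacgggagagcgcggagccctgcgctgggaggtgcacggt
TNFSF9: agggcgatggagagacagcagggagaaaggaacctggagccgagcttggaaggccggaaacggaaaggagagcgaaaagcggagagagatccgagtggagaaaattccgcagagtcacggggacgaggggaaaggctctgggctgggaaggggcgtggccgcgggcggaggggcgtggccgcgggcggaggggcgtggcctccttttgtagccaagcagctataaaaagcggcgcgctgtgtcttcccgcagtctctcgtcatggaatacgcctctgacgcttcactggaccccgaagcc
The upstream TNFRSF19 promoter held 1 SMAD box, 196 bases before the start, and the other promoters held neither motif. The box is short and stood in 45.3% of all 35116 promoters of the table and in 17 of the 39 promoters listed for 29 members (43.6%). The GC-rich element stood in 19.2% of all promoters and in 5 of the 39. A match is a description of the letters and no evidence of binding.

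The other 15 of 16 receptors without a death domain did not pass. TNFRSF12A, or Fn14, is the receptor of TWEAK. Its log2 signal was 9.99, 10.07 and 10.05 in vehicle and 10.40, 10.31 and 10.20 in activin B. Every activin B array lay above every vehicle array, yet the log2 change of 0.27 ± 0.068 (SE; adjusted p = 0.339) did not pass and had an interval from 0.12 to 0.41. TNFRSF9, also named CD137, costimulates T cells. It was read at 6.62, 6.61 and 6.49 in vehicle and 6.89, 6.70 and 6.69 in activin B, again without overlap, with a log2 change of 0.18 ± 0.071 (SE; adjusted p = 0.874). Its other probe sets gave -0.027 and 0.054, so its sets did not share a direction, and without activin B replicate 1 its log2 change was 0.12. TNFRSF11A, or RANK, is the receptor of the osteoclast factor RANKL. It was read at 8.71, 8.68 and 8.77 in vehicle and 8.54, 8.61 and 8.54 in activin B, all activin B arrays below vehicle, with a log2 change of -0.15 ± 0.062 (SE; adjusted p = 0.909) and, in its other set, -0.088. TNFRSF14, or HVEM, the receptor of LIGHT, was read at 7.10, 7.27 and 6.99 in vehicle and 6.92, 7.19 and 6.83 in activin B. Its groups overlapped, with a log2 change of -0.14 ± 0.093 (SE; adjusted p = 0.995) that was -0.064 without vehicle replicate 2, -0.062 without activin B replicate 3 and -0.24 without activin B replicate 2. TNFRSF18, or GITR, a receptor of regulatory T cells, was read at 6.66, 6.65 and 6.64 in vehicle and 6.61, 6.61 and 6.53 in activin B. The activin B arrays lay just below vehicle, by 0.068 on the log2 scale (adjusted p = 0.995). In its other set the groups overlapped, with a log2 change of -0.028.

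**Figure D3:**
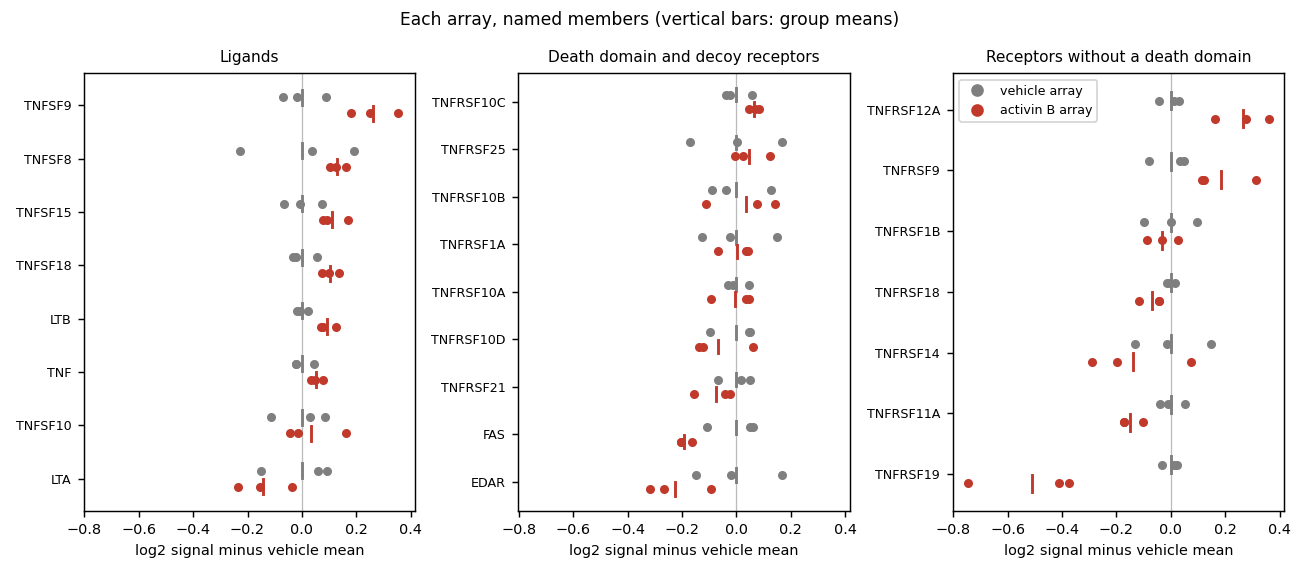
Distance of each array's log2 signal from the vehicle mean (x axis) for the 24 members named with values, in panels by role. Grey points are vehicle arrays, red points activin B arrays and vertical bars group means; the red points of TNFRSF19 lie farthest from 0, and those of TNFRSF12A, TNFSF9, TNFRSF9 and FAS stand clear of grey.

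None of the 15 measured ligands passed, with log2 changes from -0.14 to 0.26 and a median of 0.035. TNFSF9, the ligand of CD137, was read at 8.07, 8.12 and 8.23 in vehicle and 8.32, 8.39 and 8.49 in activin B. Its arrays did not overlap between groups, and the log2 change was 0.26 ± 0.069 (SE; adjusted p = 0.414) with an interval from 0.11 to 0.41. TNFSF15, or TL1A, the ligand of the death receptor TNFRSF25, was read at 6.50, 6.35 and 6.41 in vehicle and 6.59, 6.50 and 6.51 in activin B. TNFSF18, the ligand of GITR, was read at 6.36, 6.37 and 6.45 in vehicle and 6.53, 6.47 and 6.49 in activin B. LTB, which joins lymphotoxin alpha in a membrane complex that binds LTBR, was read at 6.74, 6.71 and 6.70 in vehicle and 6.84, 6.79 and 6.79 in activin B. In these 3 ligands the activin B arrays all lay above vehicle, by log2 changes of 0.11, 0.10 and 0.092 (adjusted p = 0.985, 0.986 and 0.995). The second set of TNFSF15 went the other way, at -0.10, and that of LTB was at 0.029 with overlapping groups. LTA, lymphotoxin alpha itself, was read at 6.51, 6.54 and 6.30 in vehicle and 6.41, 6.22 and 6.30 in activin B. TNFSF8, the ligand of CD30, was read at 6.54, 6.96 and 6.81 in vehicle and 6.90, 6.93 and 6.88 in activin B. The groups overlapped in both genes, whose log2 changes were -0.14 and 0.13 (adjusted p = 0.973 and 0.995). The value of TNFSF8 was 0.016 without vehicle replicate 1, its lowest array, and 0.23 without vehicle replicate 2, and that of LTA was -0.22 without vehicle replicate 3. Of the ligands, 9 had a mean at or under the median of all probe sets (6.69), TNF, TNFSF10, TNFSF15 and TNFSF18 among them, where the deposited normalization compresses differences.

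FAS, the receptor that FAS ligand uses to start apoptosis, had the smallest p of the 8 death domain receptors, none of which passed. Its log2 signal was 9.18, 9.34 and 9.35 in vehicle and 9.09, 9.09 and 9.13 in activin B. All activin B arrays lay below vehicle, with a log2 change of -0.19 ± 0.066 (SE; adjusted p = 0.782) and an interval from -0.33 to -0.050. FAS had 5 probe sets, all with estimates below 0, between -0.22 and -0.0067, and 3 of them had an unadjusted p under 0.05 (smallest adjusted p = 0.721). Of these 3, 2 were of the kind whose probes may cross-hybridise to other transcripts, and all 5 sets carry the same gene name. EDAR, the receptor of ectodysplasin in skin appendages, was read at 6.91, 7.04 and 7.22 in vehicle and 6.79, 6.96 and 6.74 in activin B. Its groups overlapped through vehicle replicate 1 and activin B replicate 2, and the log2 change was -0.23 ± 0.084 (SE; adjusted p = 0.852), or -0.14 without vehicle replicate 3. TNFRSF21, or DR6, was read at 8.83, 8.86 and 8.74 in vehicle and 8.77, 8.65 and 8.78 in activin B. The groups overlapped, with a log2 change of -0.074 ± 0.066 (SE; adjusted p = 0.995). TNFRSF25, or DR3, was read at 7.25, 7.07 and 7.41 in vehicle and 7.24, 7.27 and 7.37 in activin B. The set that represents TNFRSF25 is also of the cross-hybridising kind, with an estimated log2 change of 0.048 ± 0.081 (SE; adjusted p = 0.999), with overlap. Among its other sets, 2 stood higher in activin B without overlap, by 0.27 and 0.21 (adjusted p = 0.369 and 0.635), while the remaining 2 were at 0.025 and -0.011.

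TRAIL and its receptors were read in the cancer cells because the study examined OPG, a decoy receptor for TRAIL made by endothelial cells. TNFSF10, which encodes TRAIL, was read at 6.32, 6.17 and 6.37 in vehicle and 6.24, 6.45 and 6.27 in activin B. It lay under the median of all probe sets in every array, with overlapping groups, a log2 change of 0.035 and 3 probe sets between 0.020 and 0.076. TNFRSF10B, or DR5, was read at 10.36, 10.20 and 10.14 in vehicle and 10.38, 10.31 and 10.12 in activin B. TNFRSF10A, or DR4, was read at 9.17, 9.11 and 9.10 in vehicle and 9.16, 9.03 and 9.17 in activin B. Groups overlapped for both death receptors, with log2 changes of 0.035 ± 0.079 and -0.0040 ± 0.065 (SE; adjusted p = 0.999 for both). The third set of TNFRSF10A stood higher in all activin B arrays, by 0.22 ± 0.065 (SE; adjusted p = 0.557), and did not pass. The decoy receptor TNFRSF10D was read at 8.83, 8.97 and 8.97 in vehicle and 8.80, 8.98 and 8.78 in activin B, and TNFRSF10C at 6.59, 6.69 and 6.61 in vehicle and 6.71, 6.70 and 6.67 in activin B. The set of TNFRSF10C is of the cross-hybridising kind, and its other sets gave -0.13, -0.0069 and 0.018. The log2 changes of TNFRSF10D and TNFRSF10C, -0.067 and 0.065, had adjusted p of 0.995 each and overlapping groups. In the second set of TNFRSF10D all activin B arrays lay below vehicle, by -0.11 on the log2 scale (adjusted p = 0.982). Over TRAIL and its 4 receptors, the 95% intervals of the sets that represent them ran from -0.22 to 0.20, or 1.17-fold down to 1.15-fold up. Other sets reached further, with an interval from 0.083 to 0.36 for the third set of TNFRSF10A. Lower ends reached -0.28 in a set of TNFRSF10C and -0.24 in the second set of TNFRSF10D. TNFSF10 and TNFRSF10C had means under the median of all probe sets, where the deposited normalization compresses differences. Their intervals do not bound the change in RNA.

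TNF, the cytokine that names the family, was read at 6.43, 6.50 and 6.43 in vehicle and 6.49, 6.50 and 6.53 in activin B. TNFRSF1A, its main receptor on most cells, was read at 10.43, 10.26 and 10.16 in vehicle and 10.32, 10.33 and 10.21 in activin B. TNFRSF1B, the receptor that has no death domain, was read at 7.26, 7.36 and 7.16 in vehicle and 7.17, 7.23 and 7.29 in activin B. All of them overlapped between groups, with log2 changes of 0.053 ± 0.061, 0.0039 ± 0.075 and -0.031 ± 0.068 (SE; adjusted p = 0.999 for each). Their intervals ran from -0.18 to 0.18, at most 1.13-fold down or 1.14-fold up in the deposited signal. TNF lay under the median of all probe sets in every array, where the deposited normalization compresses differences, so its interval does not bound the change in RNA.

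The other 20 members had log2 changes from -0.071 to 0.065 in the sets that represent them, with adjusted p of 0.995 or more and intervals within -0.24 and 0.22. They included the receptors LTBR, CD40, CD27 and NGFR, the ligands CD70, FASLG, TNFSF4, TNFSF11, TNFSF13, TNFSF13B and TNFSF14, and the 3 non-coding transcripts. Some of their other sets reached further, with the opposite sign. FASLG was at 0.15, CD40 at 0.15, TNFSF14 at 0.11 and TNFRSF4 at 0.11 (adjusted p = 0.934, 0.959, 0.995 and 0.986), TNFRSF4 without overlap. The remaining sets of CD40 were at -0.011 and -0.047. LTBR, the lymphotoxin beta receptor, lay at 9.47 ± 0.12 without and 9.47 ± 0.054 with activin B (SD, n = 3). CD40, which B cells and many tumors carry, lay at 8.20 ± 0.042 without and 8.20 ± 0.22 with activin B (SD, n = 3), and CD70, the ligand of CD27, at 8.26 ± 0.049 without and 8.21 ± 0.20 with activin B (SD, n = 3). Their log2 changes were 0.0054, -0.0073 and -0.056. TNFSF11, which encodes RANKL, had a log2 change of 7.6e-04 beside -0.15 for its receptor TNFRSF11A. TNFSF11 had a mean under the median of all probe sets, as did FASLG, TNFSF4, TNFSF14, CD27, NGFR, TNFRSF8, TNFRSF17 and TNFRSF10B-AS1. The deposited normalization compresses differences there, so the intervals of these genes do not bound the change in RNA. Non-coding TNFRSF10B-AS1 and TNFRSF14-AS1 are antisense to their namesakes, and TNFRSF10A-DT is transcribed divergently. Their log2 changes were -0.0093, 0.017 and -0.060. The value of TNFRSF14-AS1 comes from a cross-hybridising set, and its other sets gave -0.14, with all activin B arrays below vehicle (adjusted p = 0.956), and 0.028.

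Probe sets of a member often differed. Of the 44 members, 20 had 1 probe set and 24 had 2 to 5, 68 sets in all, and in 11 of these 24 every set had the same sign. The distance between the highest and lowest log2 change of a member was 0.15 at the median and 0.44 for TNFRSF19, the largest of the 24. None of the 44 sets that do not represent a member passed (smallest adjusted p = 0.369), and 6 (13.6%) had an unadjusted p under 0.05, belonging to FAS, TNFRSF25, TNFRSF10A and FASLG. Over all 54613 probe sets, 0.121% were called and 5.28% had an unadjusted p under 0.05.

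**Figure D4:**
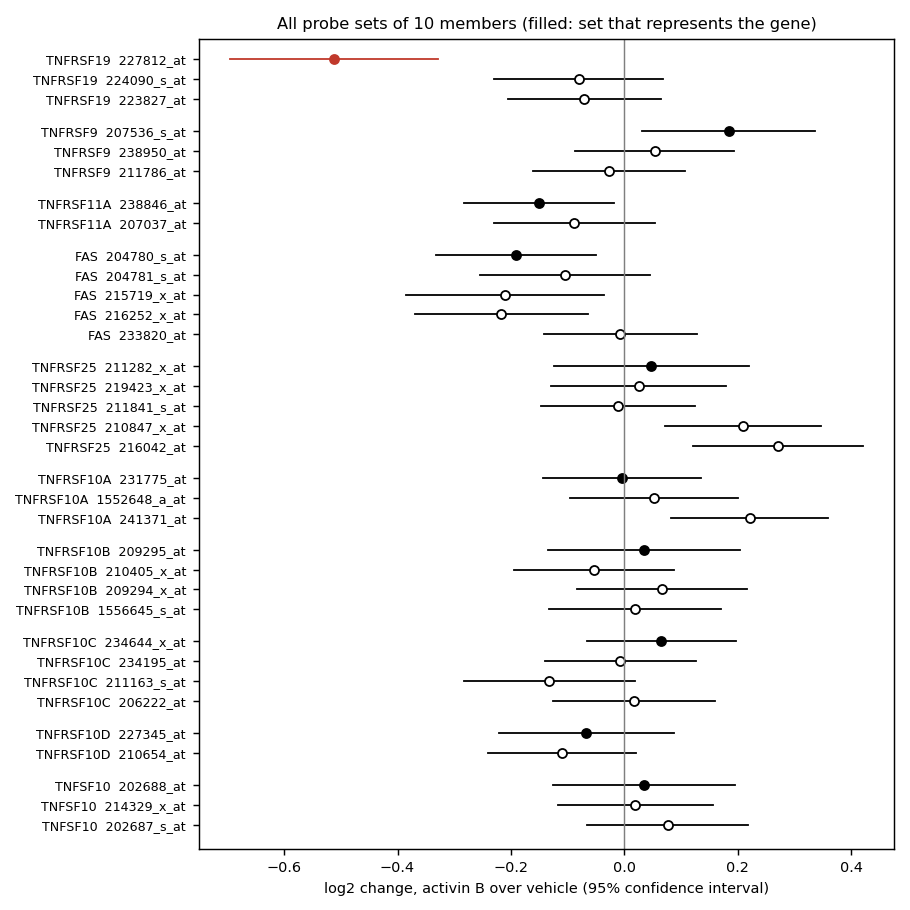
Log2 change with 95% confidence interval (x axis) for every probe set of 10 members, named by the array's own identifiers and ordered by vehicle signal within a gene. Filled points are the sets that represent the gene and red marks an adjusted p under 0.05; the 5 sets of FAS all lie below 0, whereas the sets of TNFRSF25 run from -0.011 to 0.27.

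Genes that carry the signal from these receptors were read from 5 lists, of which 49 of 54 genes were measured. None of the 49 rose or fell, and their median log2 change was 0.0029. An unadjusted p under 0.05 was found for 3 (6.12%, against 5.89% of all genes) and groups without overlap for 5 (10.2%, against 10.3%), so both shares lay near the background and the genes named here are those with the smallest p of each list, and ADAM17. Among 17 adaptors and kinases, TAX1BP1, a partner of the A20 protein, was estimated at a log2 change of 0.22 ± 0.073 (SE; adjusted p = 0.749) and the TNF receptor adaptor TRADD at -0.076 ± 0.072 (SE; adjusted p = 0.995). Of 8 genes of death signaling, CFLAR, which encodes the caspase-8 inhibitor cFLIP, was estimated at a log2 change of -0.18 ± 0.085 (SE; adjusted p = 0.947), and BIRC2, an inhibitor of apoptosis that ubiquitinates RIPK1, at 0.088 ± 0.060 (SE; adjusted p = 0.995). The activin B arrays overlapped vehicle for CFLAR and not for TAX1BP1 or BIRC2. Leaving out 1 array moved CFLAR to -0.092 (vehicle replicate 3) or -0.11 (activin B replicate 1), and TAX1BP1 to 0.14 (activin B replicate 2). In the list of 11 ubiquitin and NF-kB brakes, TNFAIP3, which encodes A20, was estimated at a log2 change of 0.25 ± 0.072 (SE; adjusted p = 0.557) without overlap, and RNF31, a subunit of the linear ubiquitin ligase, at 0.090 ± 0.068 (SE; adjusted p = 0.995). Among 8 NF-kB subunits and kinases, RELA, the main activating subunit, was estimated at a log2 change of -0.15 ± 0.062 (SE; adjusted p = 0.917), all activin B arrays below vehicle, and the kinase IKBKB at -0.11 ± 0.068 (SE; adjusted p = 0.988). The 5 genes of ligand shedding included the proteases ADAM10 and ADAM17, at 0.12 and -0.021, and the cofactor RHBDF2 at -0.084 (adjusted p = 0.986, 0.999 and 0.995). Without 1 array, IKBKB was at -0.073 (activin B replicate 1), and ADAM10 at 0.18 (activin B replicate 2) or 0.067 (activin B replicate 3). The sets of CFLAR and RNF31 are of the cross-hybridising kind, and other sets of the pathway genes are not given here.

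**Figure D5:**
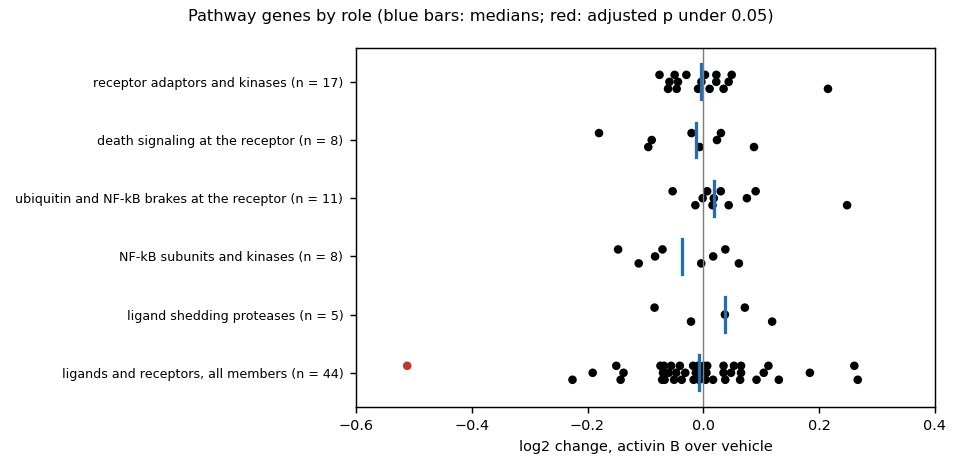
Log2 change of activin B over vehicle (x axis) for the genes of 5 pathway lists and for all 44 members, with the number measured after each name. Points are genes, blue bars medians and red an adjusted p under 0.05; the red point is TNFRSF19, and no pathway gene is red.

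Many of the ligands and receptors are made by immune cells, so markers were read beside them. Of 13 leukocyte markers 12 were measured and none passed, and 8 lay at or under the median of all probe sets, including PTPRC, the pan-leukocyte antigen CD45, at 6.22 in vehicle. Their mean log2 signal per array ran from 6.54 to 6.56 in vehicle and from 6.55 to 6.69 in activin B. Of the 12 log2 changes 7 were positive and 5 negative, with a median of 0.032. The B cell markers went apart, with CD79A, a B cell receptor subunit, at 0.41 ± 0.077 (SE; adjusted p = 0.0698) and MS4A1, or CD20, at -0.092 ± 0.073 (SE; adjusted p = 0.995). The T cell marker CD3E was at 0.20 (adjusted p = 0.799). In CD79A and CD3E the activin B arrays all lay above vehicle. The titles and the methods of the study name no cell type other than SUM-LM1 in these cultures. Markers of mesenchymal breast cancer lines (VIM, CD44, FN1, AXL and CAV1) lay above that median, with vehicle signals from 10.22 to 13.89. The epithelial markers EPCAM, CDH1, KRT19 and ESRP1 lay at 6.20, 6.27, 6.43 and 6.51 in vehicle, under the median of all probe sets. KRT8 and KRT18, read from sets of the cross-hybridising kind, lay above it. None of these 6 epithelial markers passed. Array medians lay between 6.69 and 6.70, and activin B replicate 3 stood apart on the first principal component (29.5% of the variance), at 21.7 against -10.6 to 5.70 for the others. Without that array TNFRSF19 was again called (log2 change -0.56; adjusted p = 0.0246) and no other member was.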

How the data were processed

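SUM-LM1 cells were profiled on 6 arrays, 3 per group, with 50 ng RNA each. Titles gave the group and replicate number of each array and describe the replicates as biological. By the methods of the study, the authors used Chipster for robust multiarray averaging (RMA), and the deposited values are log2 signals per probe set. That step equalizes the arrays, hides shifts shared by most transcripts and compresses differences near background. The files hold no detection calls, and scan dates were not used here.

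After 62 control sets were left out, 54613 probe sets were fitted in limma 3.58.1 (R 4.3.3) with empirical Bayes moderation, without a filter on low signals, as a comparison of both groups. P values were adjusted by Benjamini-Hochberg over all sets, and a call needs an adjusted p under 0.05. Genes were named through the platform annotation, and all 44 member symbols matched RefSeq. P values rest on the spread between these arrays, moderated toward that of all probe sets (10.8 prior degrees of freedom beside 4 residual). The number of arrays limits precision.

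The members, the role and pathway lists and the tests were chosen with earlier results of these data known. Members named with array values were any with a called set, those with the smallest p of each role (up to 6 ligands, 5 death domain, 3 decoy and 6 other receptors), and TRAIL, TNF and their receptors. Up to 2 genes per pathway list were named; any further gene was picked with its values in view. The alternatives were a replicate block, a filter at the median signal, median centring, cyclic loess, a trend or robust prior, leaving out each array, and the mean of a gene's sets. The fit was tested on simulated arrays. Figures were drawn with matplotlib 3.10.9.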

Additional observations from a re-analysis of the deposited data

How the results depend on the processing

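No member rose under any alternative run. The fall of TNFRSF19 was called under the replicate block, median centring, cyclic loess, the trend prior, the robust prior and with any 1 activin B array left out, but not with any 1 vehicle array left out (where called, adjusted p from 0.0124 to 0.0493). The count of falling members was 0 when sets at or below the median signal were dropped, where 27 of the 44 members remained and TNFRSF19 had an adjusted p of 0.0506, and 0 with the mean of a gene's sets; leaving out 1 array gave 0 to 1. Arrays with the same replicate number had correlations of deviations between 0.0410 and 0.192, and the titles do not say whether they were paired. The main fit used no replicate block because the methods of the study describe a comparison of groups without one. With the replicate block 53 probe sets rose against 40 and 44 fell against 26, and the members' calls did not change. Over all probe sets, leaving out 1 array gave 25 to 50 rises against 40 and 7 to 26 falls; no pathway gene was called under any alternative. The estimate of TNFRSF10A changed sign under median centring (5.9e-05) and with the mean of its sets (0.090), and that of TNFRSF10C with the mean of its sets (-0.014). Signs were compared for the 24 members named with array values, not for the other 20 members. Among those 24, leaving out 1 array also turned the sign of 6 small estimates. These ran from -0.029 to 0.042 for TNFRSF10A, from -0.019 to 0.11 for TNFRSF10B and from -0.059 to 0.079 for TNFRSF1A. The ranges were -0.080 to 0.017 for TNFRSF1B, -0.037 to 0.13 for TNFRSF25 and -0.029 to 0.077 for TNFSF10. Fewer samples enter these fits, and other causes were not tested.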
